A study of Homo sapiens with 10 samples.

Results

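The serine/arginine-rich (SR) splicing factors examined here were the 10 genes SRSF1 to SRSF7 and SRSF9 to SRSF11, taken by symbol from the 28380 genes of the count table, and each of them passed the low-count filter that left 13378 genes to test. The counts came from RPE-1 cells, an established line of human retinal pigment epithelial cells immortalized with telomerase, that had been exposed for 4 h to 25 µM sulforaphane (SFN), an isothiocyanate of cruciferous vegetables, or to its vehicle DMSO. Each treatment had 5 replicates of 50000 cells, and the study's methods describe 3′-end sequencing of polyadenylated RNA (QuantSeq). All libraries thus come from a single cell line, and whether replicates were separate cultures on separate days is not given in the sources used here, so p-values measure the spread between these samples, which may be partly technical. In bulk RNA of this kind, fewer cells expressing a gene and less of its RNA per cell cannot be told apart.

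SR proteins bind exonic enhancer sequences in pre-mRNA through an RNA recognition motif and recruit the spliceosome through a tail of arginine and serine repeats, the RS domain. Kinases of the SRPK family phosphorylate this tail in the cytoplasm for import by transportin 3, and CLK kinases phosphorylate it further in the nucleus and release SR proteins from nuclear speckles. SRSF1, SRSF4, SRSF5, SRSF6 and SRSF9 carry a pair of RNA recognition motifs, whereas SRSF2, SRSF3, SRSF7, SRSF10 and SRSF11 carry a single motif. Many SR proteins also hold down their own mRNA by promoting the inclusion of a poison exon, an exon with a premature stop codon that directs the transcript to nonsense-mediated decay (NMD).

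Transcripts of the NMD class are annotated throughout the family, which does not by itself show that the proteins regulate their own mRNA. In GENCODE 44 (GRCh38) all 10 genes have at least 1 transcript of the NMD class, 28 transcripts in all, against 48.7% of the 11634 protein-coding genes tested. In 6 of the 10, SRSF3, SRSF4, SRSF6, SRSF7, SRSF9 and SRSF11, an internal exon that overlaps no exon of a protein-coding transcript holds the stop codon of such an NMD transcript, compared with 20.6% of the protein-coding genes tested. The stretches from the start of such exons to the premature stop, which is in capitals, are shown for the members whose counts or ratios differed most between treatments, each 5′ to 3′ on the strand of its gene (the minus strand for SRSF4, SRSF7 and SRSF9, the plus strand for SRSF3 and SRSF11) in GRCh38. They belong to the 175-base exon at chr1:29165890-29166064 in SRSF4, the 456-base exon at chr6:36599821-36600276 in SRSF3, the 449-base exon at chr2:38748898-38749346 in SRSF7, the 90-base exon at chr12:120464733-120464822 in SRSF9 and the 117-base exon at chr1:70231859-70231975 in SRSF11. SRSF3 has 2 such exons and SRSF7 and SRSF11 have 3 each, of which 1 per gene is shown.
SRSF4: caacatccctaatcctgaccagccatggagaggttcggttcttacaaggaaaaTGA
SRSF3: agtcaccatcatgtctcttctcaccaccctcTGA
SRSF7: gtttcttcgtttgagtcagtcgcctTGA
SRSF9: aaaactatTAG
SRSF11: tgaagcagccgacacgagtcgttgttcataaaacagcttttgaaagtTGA
Of the 28 NMD transcripts, 22 end in the last exon of the canonical transcript of their gene. The deposited values are counts per gene, so a read of such a last exon adds to the same count whether or not the transcript carried a poison exon, and the proportion of the isoforms cannot be read from these data.

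Total counts ranged from 15689294 to 20666692 in DMSO and from 12375860 to 17308706 in SFN, and the members had from 1289 to 14705 counts in a library. The epithelial markers KRT8 and KRT18 and the mesenchymal marker VIM were abundant, with at least 2396 counts in every library, whereas the mature pigment epithelium genes RPE65 and RLBP1 had at most 4 counts and the pigment gene PMEL 7 to 29. Of the other markers on this list, BEST1 had 97 to 672 counts in DMSO and a higher but overlapping range, 275 to 1244, in SFN. The pigment epithelium regulators MITF, with 217 to 1210 counts, and OTX2, with 107 to 299, were instead lower in SFN (log2 fold change -1.12 and -0.64, adjusted p = 5.3e-05 and 0.0029 in edgeR). The part of these marker differences in the results on SR genes was not tested. The 3 measured markers of blood, endothelial and other epithelial cells (PTPRC, PECAM1 and EPCAM) summed to at most 10 counts in a DMSO and 7 in an SFN library. DMSO replicate 1 stood apart from the other libraries. It lay above the range of the other DMSO replicates for 40.5% and below it for 44.5% of the genes tested, and the members' results and the lists' counts and medians are therefore given with and without it. Levels are given as counts per 1000000 counts (CPM) scaled between libraries by the TMM method, and a gene is called changed when edgeR's quasi-likelihood test gave a Benjamini-Hochberg adjusted p under 0.05 over all genes tested.

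Over all 10 libraries, SRSF4 was the only member that changed, and it fell by 27.3% after SFN. Without DMSO replicate 1, SRSF4 remained lower and SRSF3, SRSF9 and SRSF11 were higher, while SRSF1, SRSF2, SRSF5, SRSF6, SRSF7 and SRSF10 did not pass the test. The median log2 fold change of the members was -0.063 (-0.022 without DMSO replicate 1) against -0.028 (-0.0032) for all genes tested. With all libraries 0 of the 10 members were increased, where 9.07% of all genes tested were, and 1 was decreased, where 13.9% were. By DESeq2, 1 member was increased and 1 decreased at the adjusted threshold, where 12.3% and 16% of the genes it tested were. Without DMSO replicate 1 the counts were 3 increased (background 22.5%) and 1 decreased (background 23.5%). Each of these 4 members then had groups that did not overlap in CPM, as 16.6% of the genes tested had with SFN higher and 19.6% with SFN lower.

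SRSF4 (SRp75), a long SR protein that acts in constitutive and alternative splicing, is encoded on chromosome 1 from 29147743 to 29181900. Its level was 132, 173, 182, 176 and 159 CPM in DMSO replicates 1 to 5 and 114, 111, 118, 128 and 127 CPM in SFN replicates 1 to 5. Every SFN library was below every DMSO library, including DMSO replicate 1, which was the lowest of the DMSO libraries, and 11.1% of all genes tested showed such a separation with SFN lower and 8.78% with SFN higher. SRSF4 fell from 165 ± 20.3 CPM with DMSO (mean ± SD, n = 5) to 119.6 ± 7.62 CPM with SFN (n = 5) (log2 fold change -0.46 ± 0.11 SE, adjusted p = 0.01 in edgeR; 95% interval -0.70 to -0.22). The SRSF4 log2 fold change was -0.53 ± 0.078 SE (edgeR adjusted p = 9.8e-05) without DMSO replicate 1, and it was called in all 18 alternative fits. The genes whose centred log2 CPM ran closest to SRSF4 over the 10 libraries were RHOBTB2, with a root mean square difference of 0.0653, and GGA2, with 0.0707. The log2 fold change was -0.48 for RHOBTB2 and -0.41 for GGA2, which encodes an adaptor of Golgi transport, on the same libraries that set this likeness.

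SRSF5 (SRp40) and SRSF6 (SRp55), the members closest to SRSF4 in domain structure, did not pass the test. For SRSF5, on chromosome 14 from 69726900 to 69772005, the level was 202, 273, 233, 284 and 251.9 CPM in DMSO replicates 1 to 5 and 242, 232, 253, 244 and 269.7 CPM in SFN replicates 1 to 5, and the groups overlapped. Its mean was 248.7 ± 32.8 CPM with DMSO (mean ± SD, n = 5) and 248 ± 14.3 CPM with SFN (n = 5) (log2 fold change -0.0047 ± 0.11 SE, adjusted p = 0.98 in edgeR; 95% interval -0.25 to 0.24). Leaving out DMSO replicate 1 gave SRSF5 a log2 fold change of -0.076 ± 0.081 SE (edgeR adjusted p = 0.47). SRSF6, on chromosome 20 from 43457893 to 43466046, had 199, 228, 215, 213 and 217 CPM in DMSO replicates 1 to 5 and 224, 217, 223, 228 and 228 CPM in SFN replicates 1 to 5. Relative to its mean it varied least of all members in SFN, and the groups overlapped. The SRSF6 mean was 214 ± 10.5 CPM with DMSO (mean ± SD, n = 5) and 224 ± 4.42 CPM with SFN (n = 5) (log2 fold change 0.063 ± 0.085 SE, adjusted p = 0.66 in edgeR; 95% interval -0.12 to 0.25). For SRSF6 the log2 fold change without DMSO replicate 1 was 0.031 ± 0.067 SE (edgeR adjusted p = 0.73). Another annotated gene on the same strand, ENSG00000288000, overlaps 654 bases of the canonical SRSF6 transcript, and how reads in shared bases were assigned is not given in the sources used here.

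**Figure D1:**
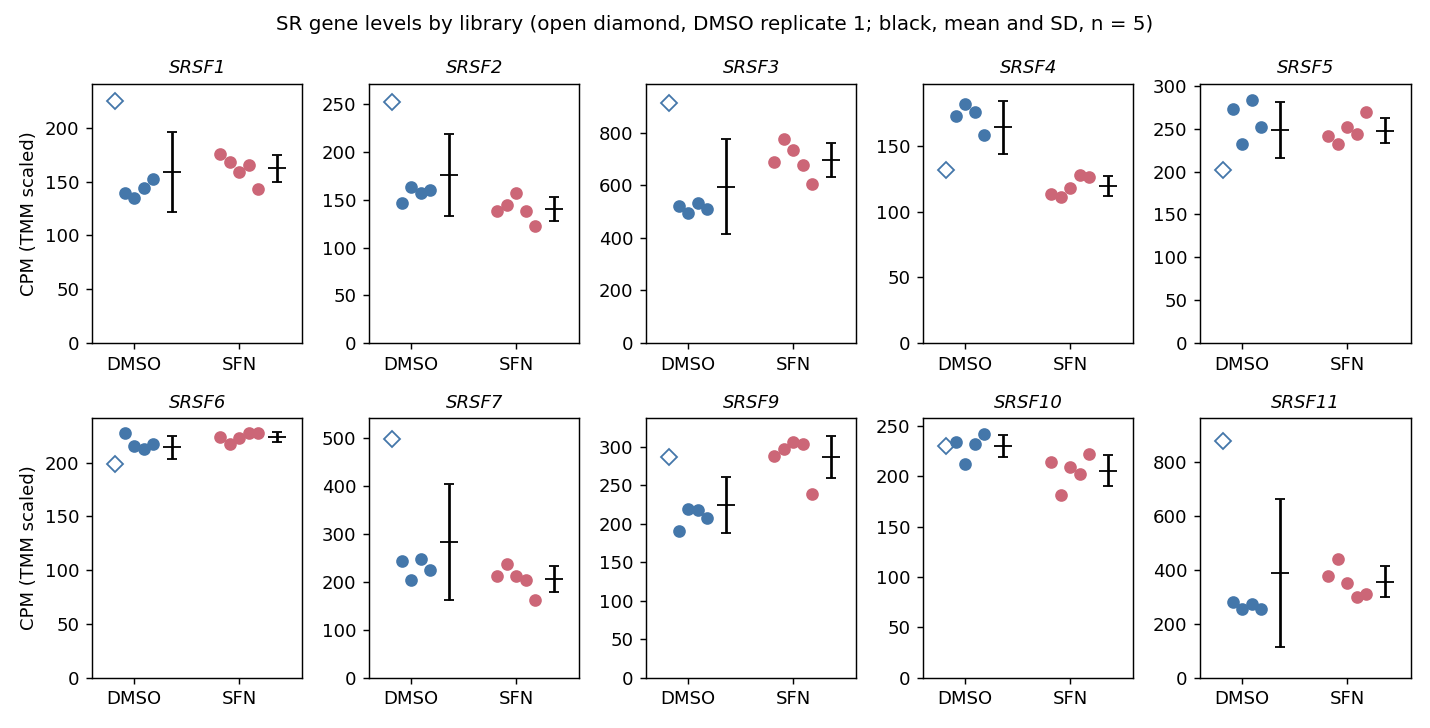
Level of each SR gene by library in TMM-scaled CPM (linear axes from 0), with DMSO in blue, SFN in red, DMSO replicate 1 as an open diamond, and the mean and SD of 5 replicates in black. The SRSF4 values of the SFN libraries (111 to 128 CPM) lie below all DMSO values, and the diamond lies far above the other DMSO libraries for SRSF3, SRSF7 and SRSF11.

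SRSF3 (SRp20) and SRSF7 (9G8) are small SR proteins that also act as adaptors for the mRNA export receptor NXF1. SRSF3, on chromosome 6 from 36594353 to 36605600, was measured at 916, 523, 494, 534 and 510.0 CPM in DMSO replicates 1 to 5 and 689, 777, 735, 679 and 606 CPM in SFN replicates 1 to 5. DMSO replicate 1 was the highest of all libraries, and the other DMSO libraries, from 494 to 534 CPM, lay below every SFN library. With all libraries the SRSF3 difference did not pass the test (log2 fold change 0.23 ± 0.18 SE, adjusted p = 0.41 in edgeR; 95% interval -0.16 to 0.61), and without DMSO replicate 1 SRSF3 rose, with a log2 fold change of 0.43 ± 0.082 SE (edgeR adjusted p = 8.4e-04). SRSF7, on chromosome 2 from 38743599 to 38751494, was measured at 498, 244, 204, 246 and 223 CPM in DMSO replicates 1 to 5 and 212, 237, 212, 203 and 162 CPM in SFN replicates 1 to 5. Here too DMSO replicate 1 was the highest library, and the other DMSO libraries overlapped with SFN. The SRSF7 log2 fold change was -0.46 ± 0.23 SE (edgeR adjusted p = 0.18; 95% interval -0.97 to 0.041) with all libraries and -0.16 ± 0.10 SE (edgeR adjusted p = 0.21) without that one.

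SRSF1 (ASF/SF2), the founding member of the family, and SRSF9 (SRp30c), its closest relative, both carry a second recognition motif of a degenerate type. SRSF9, on chromosome 12 from 120461672 to 120495946, had 287, 191, 219, 218 and 208 CPM in DMSO replicates 1 to 5 and 288, 297, 306, 304 and 239 CPM in SFN replicates 1 to 5. The groups overlapped because DMSO replicate 1, at 287 CPM, lay above SFN replicate 5, at 239 CPM. The SRSF9 mean was 224 ± 36.5 CPM with DMSO (mean ± SD, n = 5) and 287 ± 27.8 CPM with SFN (n = 5) (log2 fold change 0.35 ± 0.13 SE, adjusted p = 0.068 in edgeR; 95% interval 0.074 to 0.63), and did not pass. When DMSO replicate 1 was left out SRSF9 rose, with no overlap and a log2 fold change of 0.45 ± 0.09 SE (edgeR adjusted p = 0.0011), and without SFN replicate 5 it also passed (log2 fold change 0.41, adjusted p = 0.042 in edgeR), where 8.39% of the genes tested were increased and 13.2% decreased. The gene GATC, read from the opposite strand, shares 491 bases with the canonical SRSF9 transcript. GATC itself had from 549 to 904 counts in DMSO and from 453 to 577 in SFN, and since the use of strand in the counting is not stated, reads of the shared bases cannot be told apart.

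For SRSF1, on chromosome 17 from 58000919 to 58007346, the level was 224, 139.7, 135, 144 and 152 CPM in DMSO replicates 1 to 5 and 176, 168, 159, 165 and 143 CPM in SFN replicates 1 to 5. DMSO replicate 1 was the highest library and the groups overlapped. The mean was 159 ± 37.1 CPM with DMSO (mean ± SD, n = 5) and 162 ± 12.4 CPM with SFN (n = 5) (log2 fold change 0.029 ± 0.15 SE, adjusted p = 0.92 in edgeR; 95% interval -0.29 to 0.35). Without DMSO replicate 1 the SRSF1 log2 fold change was 0.18 ± 0.081 SE (edgeR adjusted p = 0.084), again with overlapping groups. A gene model on the same strand, AC015813.2, overlaps 1690 bases of the canonical SRSF1 transcript and had at most 2 counts in any library, and another on the opposite strand, ENSG00000279069, overlaps 303 bases and had 5 to 37 counts. The assignment of reads in these shared bases is likewise not given.

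**Figure D2:**
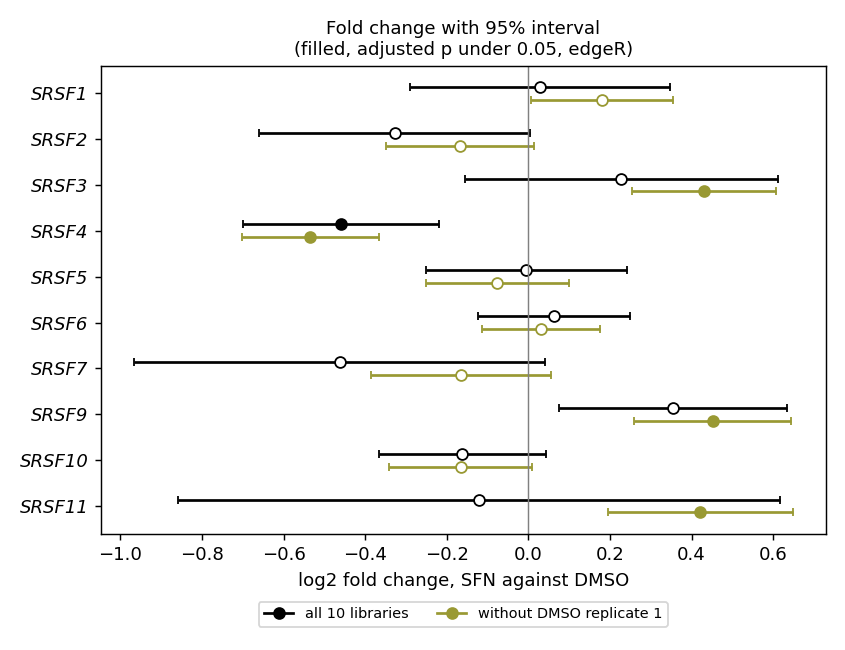
Log2 fold change of each SR gene, SFN against DMSO, with its 95% interval from edgeR's quasi-likelihood fit over all 10 libraries (black) and without DMSO replicate 1 (olive), filled where the adjusted p was under 0.05. SRSF4 is filled in both fits, and SRSF3, SRSF9 and SRSF11 only in the fit without that library.

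SRSF2 (SC35), a member that mostly stays in the nucleus, lies on chromosome 17 from 76734115 to 76737333 and was measured at 252.4, 146, 163, 157 and 161 CPM in DMSO replicates 1 to 5 and 138, 145, 157, 138 and 122 CPM in SFN replicates 1 to 5. Its highest library was DMSO replicate 1, and the groups overlapped through SFN replicate 3. The SRSF2 mean was 176 ± 43.3 CPM with DMSO (mean ± SD, n = 5) and 140.1 ± 12.5 CPM with SFN (n = 5) (log2 fold change -0.33 ± 0.15 SE, adjusted p = 0.15 in edgeR; 95% interval -0.66 to 0.005), and the log2 fold change was -0.17 ± 0.084 SE (edgeR adjusted p = 0.12) without DMSO replicate 1. With scaling by library size alone SRSF2 passed the test (log2 fold change -0.39, adjusted p = 0.037 in edgeR), and this scaling called 16.2% of the genes tested decreased and 6.12% increased. The opposite-strand gene MFSD11 shares 568 bases with the canonical SRSF2 transcript and had from 177 to 300 counts in DMSO and from 208 to 301 in SFN.

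SRSF10 (SRp38), known as a splicing repressor when it is dephosphorylated in mitosis or after heat shock, lies on chromosome 1 from 23964347 to 23980927. Its level was 230.4, 234, 212, 232 and 242 CPM in DMSO replicates 1 to 5 and 214, 181, 209, 203 and 222 CPM in SFN replicates 1 to 5. DMSO replicate 1 was within the other DMSO libraries for this gene, and the groups overlapped. SRSF10 averaged 230.1 ± 11.001 CPM with DMSO (mean ± SD, n = 5) and 206 ± 15.5 CPM with SFN (n = 5) (log2 fold change -0.16 ± 0.094 SE, adjusted p = 0.25 in edgeR; 95% interval -0.37 to 0.043). Its log2 fold change was -0.17 ± 0.081 SE (edgeR adjusted p = 0.11) without DMSO replicate 1. SRSF11 (p54), a more distant SR protein that binds the splicing factor U2AF, lies on chromosome 1 from 70205682 to 70253052. Its level was 877, 279, 254, 273 and 254 CPM in DMSO replicates 1 to 5 and 378, 440.3, 351, 301 and 312 CPM in SFN replicates 1 to 5. DMSO replicate 1 was at 877 CPM and the other DMSO libraries at no more than 279 CPM, below every SFN library. The SRSF11 log2 fold change was -0.12 ± 0.34 SE (edgeR adjusted p = 0.85; 95% interval -0.86 to 0.62) with all libraries and 0.42 ± 0.11 SE (edgeR adjusted p = 0.0052) without DMSO replicate 1, so that its direction turned with this library.

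DMSO replicate 1 did not shift the family evenly. Relative to the mean log2 CPM of the other DMSO libraries it was higher by 1.73 for SRSF11, 1.12 for SRSF7, 0.83 for SRSF3, 0.69 for SRSF2, 0.65 for SRSF1 and 0.46 for SRSF9. In contrast, the same difference was -0.39 for SRSF4, -0.36 for SRSF5 and -0.14 for SRSF6. All of these lay outside the range of the other DMSO libraries, as 40.5% (above) and 44.5% (below) of the genes tested did, and SRSF10, at 0.0044, lay within it. SRSF7 and SRSF11 were more than 1 log2 unit above, as were 14.7% of the genes tested. Leaving out this library raised the number of members called from 1 to 4, while leaving out SFN replicate 5 raised it to 2, and leaving out any other single library left it at 1. With the sample quality weights of limma-voom, which give discordant libraries less weight and were added after seeing the data, 4 members were increased and 3 decreased, where 29% and 30.2% of the genes tested were.

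The summed counts of the SR genes overlapped between the groups. The sums were 3377, 2581, 2475, 2621 and 2558 CPM, here without TMM scaling, in DMSO replicates 1 to 5 and 2592, 2628, 2659, 2557 and 2389 in SFN replicates 1 to 5. DMSO replicate 1 was the highest library, and the means were 2722 ± 369.9 (SD, n = 5) in DMSO, 2559 ± 61.5 (SD, n = 4) without that library, and 2565 ± 105 (SD, n = 5) in SFN. No p-value is given for this sum, as it is taken over genes chosen with earlier results of these data known.

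Within this sum the proportions of some members did not overlap between the groups. A share of the family sum does not depend on how libraries are scaled against each other, and it is compared here only for the same gene between libraries. SRSF3 made up 21.4% to 23.99% of it in DMSO and 24.9% to 27.7% in SFN. SRSF9 made up 7.51% to 9.48% of it in DMSO and 9.82% to 11.7% in SFN. Neither share overlapped between the groups, and both were higher in SFN. Conversely, SRSF7 made up 8.82% to 13.04% of it in DMSO and 6.67% to 8.46% in SFN. SRSF2 made up 6.02% to 7.07% of it in DMSO and 5.03% to 5.77% in SFN, so that both of these shares were lower in SFN, again without overlap. The SRSF4 share was 3.45, 7.12, 7.90, 7.12 and 6.68% in DMSO replicates 1 to 5 and 4.26, 3.96, 4.34, 4.94 and 5.22% in SFN replicates 1 to 5, so that the SFN libraries were below DMSO replicates 2 to 5 but not below DMSO replicate 1. Against DMSO replicates 2 to 5 alone, the SRSF10 share was also lower in SFN and the SRSF11 share higher, both without overlap. The shares of SRSF1, SRSF5 and SRSF6 overlapped with and without DMSO replicate 1. How often shares within other sets of genes separate in this way was not computed. By CPM, 8.78% of single genes tested separated with SFN higher and 11.1% with SFN lower. Without DMSO replicate 1 these were 16.6% and 19.6%. The large SRSF11 count of DMSO replicate 1, 23.0% of the family sum compared with 10.7% to 11.5% in the other DMSO libraries, enters the total behind every other share in that library. Even so, the shares of SRSF3 (23.99%) and SRSF7 (13.04%) were higher there than in any other DMSO library. Counts are not scaled per length here. The study's methods name QuantSeq and the labels standard Illumina protocols, so the order of the shares is not read as an order of abundance. The shares of a library sum to a fixed total and are given as a description, with no test.

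**Figure D3:**
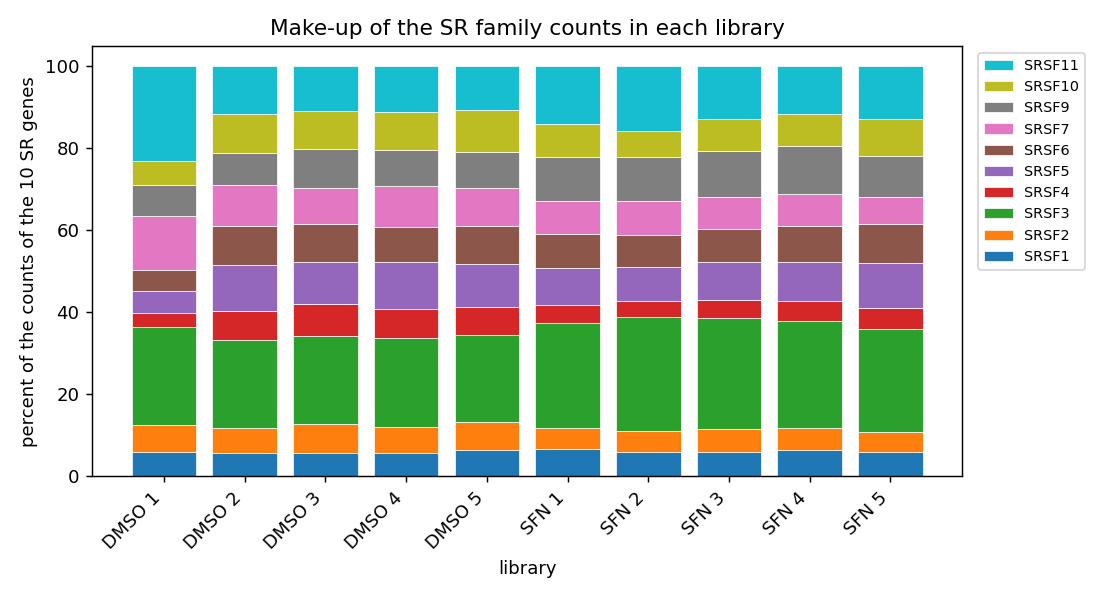
Percent of the summed counts of the 10 SR genes that came from each gene, stacked, in each of the 10 libraries. SRSF3 and SRSF9 take a wider band in every SFN library than in any DMSO library, and SRSF11 takes 23.0% in DMSO replicate 1.

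The ratio of related members within a library was compared next, since it needs no scaling between libraries. These ratios are of members chosen with earlier results of these data known, and those among SRSF4, SRSF5 and SRSF6 depend on each other. Their p-values thus describe how these libraries separate and are not independent evidence. In 4 of the 5 pairs compared the SFN and DMSO libraries did not overlap, with DMSO replicate 1 included. Both SRSF4/SRSF5 and SRSF4/SRSF6 are among them and share SRSF4. How often pairs of other genes separate in this way was not computed. Of single genes tested, 8.78% separated with SFN higher and 11.1% with SFN lower. The SRSF3/SRSF7 log2 ratio of counts was 0.88, 1.10, 1.28, 1.12 and 1.19 in DMSO replicates 1 to 5 and 1.70, 1.71, 1.79, 1.74 and 1.90 in SFN replicates 1 to 5. It was 1.11 ± 0.15 (SD, n = 5) in DMSO and 1.77 ± 0.083 (SD, n = 5) in SFN, a difference of 0.66 (two-sided exact permutation p = 0.00794, 0.00992 after Benjamini-Hochberg adjustment over the 5 pairs). This p-value is the smallest that 5 against 5 samples can give. Although neither gene passed the test over all libraries by itself, SRSF3 thus rose relative to SRSF7 in every SFN library beyond every DMSO library.

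Among the longer SR proteins, SRSF4 fell relative to both of its relatives. The SRSF4/SRSF5 log2 ratio ranged from -0.69 to -0.35 in DMSO and from -1.10 to -0.93 in SFN, a difference of -0.46 (two-sided exact permutation p = 0.00794, 0.00992 after Benjamini-Hochberg adjustment over the 5 pairs). For SRSF4/SRSF6 it ranged from -0.59 to -0.24 in DMSO and from -0.98 to -0.83 in SFN, a difference of -0.52 (two-sided exact permutation p = 0.00794, 0.00992 after Benjamini-Hochberg adjustment over the 5 pairs). The SRSF5/SRSF6 ratio, by contrast, ranged from 0.024 to 0.42 in DMSO and from 0.094 to 0.24 in SFN, with a difference of -0.06 (two-sided exact permutation p = 0.452, 0.452 after Benjamini-Hochberg adjustment over the 5 pairs), which did not pass. In the remaining pair SRSF1 fell relative to SRSF9, with a log2 ratio from -0.70 to -0.35 in DMSO and from -0.95 to -0.71 in SFN, a difference of -0.31 (two-sided exact permutation p = 0.00794, 0.00992 after Benjamini-Hochberg adjustment over the 5 pairs). Among the pairs that separated, this one did so most narrowly, at -0.703 in DMSO replicate 3 and -0.712 in SFN replicate 1. With DMSO replicate 1 left out, the differences were 0.60 for SRSF3/SRSF7, -0.46 for SRSF4/SRSF5, -0.57 for SRSF4/SRSF6 and -0.27 for SRSF1/SRSF9, each with an exact permutation p of 0.0159 (0.0198 adjusted over the pairs).

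**Figure D4:**
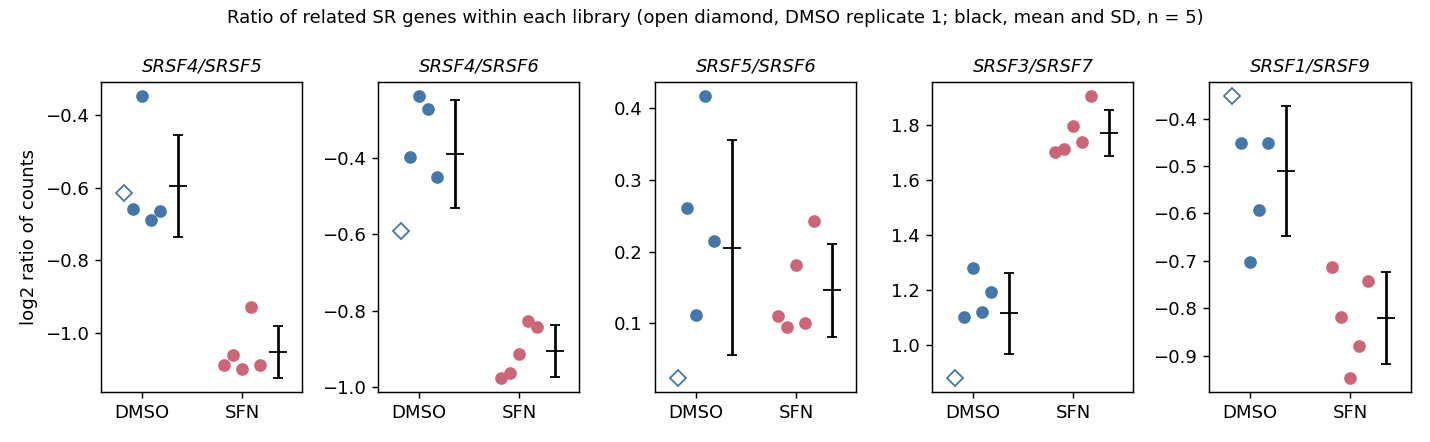
Log2 ratio of the counts of related SR genes in each library (axes do not start at 0), with DMSO in blue, SFN in red, DMSO replicate 1 as an open diamond, and the mean and SD of 5 replicates in black. The groups separate in all pairs but SRSF5/SRSF6. They separate most widely for SRSF3/SRSF7 (1.11 in DMSO and 1.77 in SFN) and only narrowly for SRSF1/SRSF9.

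RefSeq promoters (GRCh38.p14) were at hand for 9 of the 10 members, and the 250 bases before the start are shown for SRSF4 (chr1:29181901-29182150, minus strand), which fell, and SRSF3 (chr6:36594112-36594361, plus strand), whose share was higher in SFN. Capitals mark matches on either strand to CTTCCGG, the core of an ETS factor element, in SRSF4 and to CCAAT, the box bound by NF-Y, in SRSF3.
SRSF4: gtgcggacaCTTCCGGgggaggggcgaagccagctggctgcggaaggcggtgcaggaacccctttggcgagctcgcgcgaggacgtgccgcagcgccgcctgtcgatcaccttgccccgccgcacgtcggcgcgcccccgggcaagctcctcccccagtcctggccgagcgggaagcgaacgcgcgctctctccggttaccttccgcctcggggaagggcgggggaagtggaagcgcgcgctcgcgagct
SRSF3: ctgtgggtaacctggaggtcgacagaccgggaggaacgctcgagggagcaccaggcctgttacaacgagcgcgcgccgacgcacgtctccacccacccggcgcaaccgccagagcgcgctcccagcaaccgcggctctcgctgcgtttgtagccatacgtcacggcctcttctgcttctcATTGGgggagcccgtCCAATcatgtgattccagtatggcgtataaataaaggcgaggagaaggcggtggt
CTTCCGG was found before SRSF4 and SRSF5 and in 8.52% of all 35116 promoters of this length, and CCAAT before SRSF3 and in 32.01% of them. TGACNNNGC, the core of the antioxidant response element bound by NRF2, was found before SRSF1 and SRSF5 and in 10.9% of all promoters. The heat shock element, searched as GAA, TTC and GAA with any pair of bases between neighbours, and TTGCATCA, an element for ATF4 with C/EBP factors, were found before 0 of the 9 members and in 0.441% and 0.772% of all promoters. The letters alone say nothing on whether a factor was bound.

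The partners of SR proteins were examined in the same fit. Of 11 kinases and phosphatases of the RS domain tested, 3 were increased and 1 decreased by edgeR's quasi-likelihood test, where 9.07% and 13.9% of all genes tested were. Their log2 fold changes had a median of 0.11 against -0.028 for all genes tested. CLK1 rose from 72.0 ± 3.43 CPM with DMSO (mean ± SD, n = 5) to 243 ± 12.5 CPM with SFN (n = 5) (log2 fold change 1.76 ± 0.09 SE, adjusted p = 2.7e-07 in edgeR). Its relative CLK4 also rose, from 15.6 ± 0.535 CPM with DMSO (mean ± SD, n = 5) to 28.1 ± 3.56 CPM with SFN (n = 5), whereas CLK2 fell from 28.5 ± 5.94 CPM with DMSO (mean ± SD, n = 5) to 14.6 ± 2.47 CPM with SFN (n = 5). The groups did not overlap for any of these 3 kinases, and the log2 fold changes of CLK4 and CLK2 were 0.85 ± 0.11 SE and -0.96 ± 0.18 SE. PPP1CC (log2 fold change 0.26 ± 0.087 SE), a catalytic subunit of the phosphatase PP1, was close to the threshold, at an adjusted p of 0.047 by the same test. The cytoplasmic kinase SRPK1 did not pass with all libraries (log2 fold change -0.36 ± 0.14 SE, adjusted p = 0.083 in edgeR), although its groups did not overlap, and fell without DMSO replicate 1 (log2 fold change -0.22 ± 0.074 SE, adjusted p = 0.026 in edgeR). SRPK2 was at 134 CPM in DMSO replicate 1 and 52.4 to 55.1 CPM in the other DMSO libraries, and its log2 fold change, -0.49 with and -0.12 without that library, passed in neither fit. In the fit without DMSO replicate 1, 5 of the 11 genes were increased and 3 decreased, where 22.5% and 23.5% of all genes tested were, and the median was 0.14.

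Of 31 other proteins with RS-rich regions that act in splicing, 2 were increased and 4 decreased, where 9.07% and 13.9% of all genes tested were. Their median log2 fold change was -0.20 with all libraries and -0.027 without DMSO replicate 1. RSRC2 rose from 152 ± 12.2 CPM with DMSO (mean ± SD, n = 5) to 357 ± 19.5 CPM with SFN (n = 5) (log2 fold change 1.23 ± 0.098 SE, adjusted p = 5.7e-06 in edgeR), and RSRP1 (log2 fold change 0.64 ± 0.098 SE) rose as well, both without overlap. The decreased genes were PNN (log2 fold change -0.68 ± 0.11 SE), which encodes the exon junction protein pinin, SCAF11 (log2 fold change -0.46 ± 0.13 SE), TRA2B (log2 fold change -0.34 ± 0.096 SE), which encodes the SR-like splicing activator transformer 2 beta, and ACIN1 (log2 fold change -0.34 ± 0.11 SE). PNN fell from 416 ± 56.4 CPM with DMSO (mean ± SD, n = 5) to 259 ± 17.1 CPM with SFN (n = 5), without overlap, and the groups overlapped only for ACIN1 among these 4. SRSF8, a retrotransposed copy of SRSF2 outside the 10 members, with which reads of SRSF2 could be shared, was at 39.1 ± 10.4 CPM with DMSO (mean ± SD, n = 5) and 37.5 ± 2.78 CPM with SFN (n = 5), and its log2 fold change, -0.061 ± 0.16 SE with all libraries and 0.12 ± 0.088 SE without DMSO replicate 1, passed in neither fit. SRSF12 did not pass the low-count filter and was not tested. Without DMSO replicate 1, 5 were increased and 9 decreased in this list, where 22.5% and 23.5% of all genes tested were.

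In the transport list, which holds the importer TNPO3, the export receptor NXF1 and the TREX complex, 2 of 12 genes were increased and 0 decreased, where 9.07% and 13.9% of all genes tested were. The median log2 fold change was 0.11 with all libraries and 0.13 without DMSO replicate 1. THOC6, a TREX subunit, rose from 14.3 ± 1.95 CPM with DMSO (mean ± SD, n = 5) to 37.7 ± 1.02 CPM with SFN (n = 5) (log2 fold change 1.39 ± 0.11 SE, adjusted p = 6.5e-06 in edgeR). NXF1 (log2 fold change 0.51 ± 0.12 SE), for which SRSF3 and SRSF7 act as adaptors, also rose, and neither gene's groups overlapped. TNPO3 had a log2 fold change of 0.093 and did not pass. Of 15 genes of NMD and the exon junction complex, 0 were increased and 1 decreased against the same background, and the median turned from -0.12 with all libraries to 0.13 without DMSO replicate 1. The decreased gene, CASC3 (log2 fold change -0.80 ± 0.23 SE), encodes a peripheral exon junction protein, and its groups overlapped through DMSO replicate 1, which differed from the mean log2 CPM of the other DMSO libraries by -1.17. Of 30 core spliceosome genes, 1 was increased, SF3B1 (log2 fold change 0.38 ± 0.13 SE), with overlapping groups, and 1 decreased, CDC5L (log2 fold change -0.58 ± 0.11 SE), without overlap, again where 9.07% and 13.9% of all genes tested were. Here too the median turned, from -0.076 to 0.19 without DMSO replicate 1. The lists rested on DMSO replicate 1 to different degrees, and without it 3 of the 12 transport genes were increased and 0 decreased, 3 of the 15 NMD genes were increased and 2 decreased, and 12 of the 30 core spliceosome genes were increased and 6 decreased, where 22.5% and 23.5% of all genes tested were.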

How the data were processed

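RNA from 10 libraries of RPE-1 cells (5 DMSO, 5 SFN) was analysed from the raw read counts per gene that the authors deposited. Per the submitters' processing notes FastQC, STAR, featureCounts, edgeR and the hg38 build were used. Versions, gene annotation, use of strand and treatment of reads that match several genes are not given in the sources used here. The labels name standard Illumina protocols, whereas the study's methods name QuantSeq.

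Samples were grouped by their titles. The study's methods also name an adjustment for repeated measures without defining it, so replicate number was fitted as a block only as an alternative. Counts were filtered (filterByExpr), TMM-normalized and tested with edgeR 4.0.16 (quasi-likelihood F test, Benjamini-Hochberg adjustment over 13378 genes, threshold 0.05) in R 4.3.3, with a fit tested first on simulated data. The 46 rows without a symbol were kept. DESeq2 1.42.0 and limma 3.58.1 served as alternatives. Ratios of raw counts (0.5 added) were compared by two-sided exact permutation over all assignments of the 10 libraries to the groups. Replicates differed by more than sampling noise, and none were merged.

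The members and lists were chosen with earlier results of these data known. Therefore no test of the family sum, the shares or a list is given, although tests of the sum and shares had been planned. The p-values of the ratios carry the same limit. All 10 members are described, and from each list up to 4 called genes in each direction with the largest change. For called members the 2 genes of most similar pattern are named. SRPK1, SRPK2, TNPO3, SRSF8 and SRSF12 were singled out after their values were seen.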

Additional observations from a re-analysis of the deposited data

Results flagged for a closer look

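In each group of 5 libraries, the gap between the highest or lowest library and its nearest neighbour was divided by the range of the group, and a value above 0.71 marked a library that stood apart. Of 52 groups examined (CPM and family share of each member, the family sum and the 5 ratios), 17 had such a library, where about 3 are expected by chance. The measures share the same libraries and are not independent, and in 13 of the 17 groups it was DMSO replicate 1.

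For CPM, DMSO replicate 1 stood apart in SRSF1 (0.806), SRSF2 (0.839), SRSF3 (0.905), SRSF7 (0.855) and SRSF11 (0.959), above the other DMSO libraries each time, and in the summed CPM of the family (0.838). For the shares of the family sum it stood apart on the high side in SRSF3 (0.930), SRSF7 (0.713) and SRSF11 (0.936) and on the low side in SRSF4 (0.726), SRSF5 (0.772), SRSF6 (0.813) and SRSF10 (0.759). Its part in these values beyond the leave-out fits was not tested.

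SFN replicate 5 stood apart in SRSF9 CPM (0.730), below the other SFN libraries. DMSO replicate 5 had the highest SRSF1 share of the family sum in its group (0.796). In the SRSF4/SRSF5 ratio DMSO replicate 3 (0.786) and SFN replicate 4 (0.774) were the highest of their groups, and the groups still did not overlap.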

How the results depend on the processing

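SRSF4 kept its decrease and its call in all 18 alternative fits, with log2 fold changes from -0.53 to -0.42 when single libraries were left out. The number of members increased, 0 with all libraries, was 1 with DESeq2 (SRSF9), 4 with limma-voom sample quality weights (SRSF1, SRSF3, SRSF9 and SRSF11; an alternative added after seeing the data) and from 0 to 3 when single libraries were left out. It was 3 without DMSO replicate 1 and 1 without SFN replicate 5. The number decreased, 1 with all libraries, was 2 with scaling by library size only (SRSF2 and SRSF4), which moved the median of all genes to -0.11, and 3 with quality weights (SRSF4, SRSF7 and SRSF10). Quality weights called 29% of all genes increased and 30.2% decreased.

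Members that did not pass the test changed sign in several fits. SRSF5 was 0.012 with RLE size factors, 0.012 with DESeq2 and from -0.076 to 0.046 with single libraries left out. SRSF1 was -0.037 with library size only, -0.0064 with upper-quartile scaling, -0.022 with limma-voom quantile normalization and from -0.027 to 0.18 with single libraries left out. SRSF6 was -0.027 with library size only and -0.038 with quantile normalization. SRSF11 was 0.00025 with quantile normalization, 0.35 with quality weights and from -0.24 to 0.42 with single libraries left out.

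Same-numbered DMSO and SFN libraries did not deviate together (r from -0.27 to 0.48, and only number 5 matched itself best), so the numbers were not taken as pairs. A fit with the replicate block called SRSF4 alone, and gave log2 fold changes of 0.0040 for SRSF5 and 0.083 for SRSF11. With sign flips within the block, the ratio differences of -0.46 for SRSF4/SRSF5, -0.52 for SRSF4/SRSF6, 0.66 for SRSF3/SRSF7 and -0.31 for SRSF1/SRSF9 each had an adjusted p of 0.078 by exact permutation. Before adjustment over the pairs, each was at the smallest p that such a design allows.

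Gene-level counts cannot separate isoforms or reads shared with copies of a member elsewhere in the genome.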
